A study of Mus musculus with 2 samples.

Results

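The 5 genes described here, Cxcl1, Cxcl2, Cxcl3, Cxcr2 and Cxcr4, encode the main mouse chemokines that draw neutrophils through the receptor CXCR2, that receptor itself, and CXCR4, the receptor that holds neutrophils in bone marrow. They were matched by symbol among the 47729 genes of the deposited tables and all 5 were found. They were chosen by their measured levels in these same libraries, so the difference between the libraries in their levels is a description and not a test. Each was followed over cell barcodes with at least 500 detected genes and at most 10% of molecules from mitochondrial genes, which left 1817 cells of 1 library and 3005 of the other.

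Both libraries came from femur bone marrow of C57BL/6NCrljOri mice, cultured for 5 days with GM-CSF, a growth factor for granulocytes and macrophages, at 40 ng/mL. For the library without coculture, CD11b-high Ly6C-high cells were sorted from marrow cultured alone, for which the protocols name RPMI medium. For the coculture library, CD11b-mid Ly6C-mid cells were sorted from marrow that shared DMEM medium with human mesenchymal stromal cells (MSC), held in inserts with 0.4 µm pores at 1 MSC to 5 marrow cells after 24 h of preincubation. CD11b and Ly6C are surface proteins of myeloid cells, and the sources used here do not give the number, sex or age of the mice. Each group is 1 library, so no test was run: the gate, the coculture, the medium and the library cannot be told apart, and each difference is one between these 2 libraries. Levels are unique molecular identifiers (UMIs, counted RNA molecules) scaled to the total of the same cells (CPM, counts per 1e+06 UMIs), with exact Poisson 95% intervals that cover counting error only and are too narrow where few cells hold most UMIs.

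CXCL1, CXCL2 and CXCL3 are small secreted proteins that neutrophils, macrophages and stromal cells release during inflammation, often after NF-kB has been switched on. They bind CXCR2, a G protein-coupled receptor that guides neutrophils out of the marrow and towards the site of release. CXCR4 binds CXCL12, which marrow stroma makes, and this retains developing and ageing neutrophils and many lymphoid cells in the marrow. Desensitisation of both receptors runs through G protein-coupled receptor kinases and arrestins.

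The 3 ligand genes lie together on chromosome 5 on the plus strand in GRCm38, the same build as mm10. In the GENCODE M21 annotation Cxcl3 (ENSMUSG00000029379) spans chr5:90786103-90789600, Cxcl1 (ENSMUSG00000029380) chr5:90891241-90893115 and Cxcl2 (ENSMUSG00000058427) chr5:90903871-90905938. Both receptor genes are on chromosome 1, Cxcr2 (ENSMUSG00000026180) on the plus strand at chr1:74153989-74161246 and Cxcr4 (ENSMUSG00000045382) on the minus strand at chr1:128588199-128592293. Kits of this kind read the 3' end of a transcript. Over the last 500 bases of the longest coding transcripts of the ligands, 0 of 451 stretches of 50 bases in each occurred in a transcript of either other ligand. Over whole transcripts, Cxcl2 and Cxcl3 shared 61 such stretches, 3.37% of those of Cxcl2 and 6.31% of those of Cxcl3, and Cxcl1 shared 0 of 904.

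The bases just before the start site are shown because the ligands have an element in common there that the receptors do not. Sequences are from the RefSeq promoter table for GRCm38.p6, in which all 5 genes were found, and are read 5' to 3' on the gene's strand. They begin 100 bases before the RefSeq start and end before any annotated start. Capitals mark matches on either strand to the NF-kB motif GGGNNNTTCC or to the TATA box TATAAA. Overlapping matches are printed as 1 run. The regions are chr5:90891145-90891240 for Cxcl1, chr5:90903799-90903870 for Cxcl2, chr5:90786001-90786100 for Cxcl3, chr1:74153894-74153988 for Cxcr2 and chr1:128592300-128592399 for Cxcr4.
Cxcl1: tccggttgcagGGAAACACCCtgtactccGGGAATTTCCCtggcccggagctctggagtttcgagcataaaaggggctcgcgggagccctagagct
Cxcl2: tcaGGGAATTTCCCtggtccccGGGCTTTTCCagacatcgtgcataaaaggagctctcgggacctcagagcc
Cxcl3: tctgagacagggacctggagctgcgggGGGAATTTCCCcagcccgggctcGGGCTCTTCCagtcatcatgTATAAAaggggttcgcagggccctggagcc
Cxcr2: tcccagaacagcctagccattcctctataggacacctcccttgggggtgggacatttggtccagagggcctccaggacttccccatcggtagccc
Cxcr4: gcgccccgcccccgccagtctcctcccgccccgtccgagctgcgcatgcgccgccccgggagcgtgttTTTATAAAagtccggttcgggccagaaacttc

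All 3 ligand windows held the same run GGGAATTTCCC, which is a match on both strands. It began 71 bases before the start in Cxcl1, 97 in Cxcl2 and 73 in Cxcl3. Each ligand window also held another, non-identical NF-kB match, 89 bases before the start in Cxcl1, 78 in Cxcl2 and 50 in Cxcl3. Among 32851 promoter windows of 300 bases (250 before the start and 50 after), 5.56% held an NF-kB match and 0.0426% (14 windows) held GGGAATTTCCC. A TATA box match was found in Cxcl3 and Cxcr4, against 13.6% of all windows. The AP-1 motif TGANTCA (7.81% of windows) and the C/EBP motif TTGCNNAA (10.8%) were not found in the 300 bases of any of the 5 genes. A match is a set of letters and not a measured binding site, and a window without one says nothing of the factor.

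The libraries held 28294186 and 29217182 UMIs as deposited, without coculture and in the coculture, with medians of 7016 and 6031 UMIs per kept cell. They shared 4 barcodes as deposited and 2 among kept cells. Cells were grouped by clustering that left chemokine and chemokine receptor genes out, and clusters were named from marker genes. Neutrophil-like cells numbered 1061 without coculture (clusters 1, 4 and 11) and 431 in the coculture (clusters 3 and 11), and macrophage-like cells 582 and 90. A further 138 cells without coculture were in cluster 9, which stayed unnamed and was led by Igha, Jchain and Ccl4. Other classes reached 50 cells in the coculture library alone. They were T or NK cell-like (96 cells), basophil or mast cell-like (408), B lineage-like (911), megakaryocyte or platelet-like (125), eosinophil-like (482), mature dendritic cell-like (291) and progenitor-like of the granulocyte-monocyte kind (111). All 13 neutrophil markers were at 20 CPM or more in the neutrophil-like cells of both libraries. Their sums were 156878 CPM in cells without coculture and 69501 CPM in coculture cells. The same markers named the clusters, so these values are no separate support for the name. In macrophage-like cells 11 of the 13 reached 20 CPM without coculture and 12 in the coculture, with sums of 13590 and 10087.5 CPM. Cluster 3 rests on 7 neutrophil markers at least 2-fold above other cells, but only 1 (Retnlg) was among its 10 leading genes, beside Arg1, Cxcl3, Nos2 and Cxcl2. Cluster 4 rests on 3.

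The ligands differed most. Summed over all kept cells, Cxcl3 went from 45.7 CPM (43.2 to 48.3) in the library without coculture to 859 CPM, 18.8-fold higher, a log2 ratio of 4.23 (4.15 to 4.31). Cxcl2 stood at 261 CPM (255 to 267) and 573 CPM, 2.20-fold higher. Cxcl1 had 46 and 31 UMIs in all, 1.66 and 1.07 CPM, a log2 ratio of -0.64 whose interval (-1.34 to 0.05) takes in no difference.

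Of the receptors, Cxcr2 was at 64.0 CPM in the library without coculture against 88.4 CPM, a log2 ratio of 0.47 (0.38 to 0.55). That direction depends on how cells are weighted: as the mean of each cell's own CPM, the Cxcr2 log2 ratio was -0.80. Cxcr4 stood at 43.6 CPM in both, a log2 ratio of 0.00 (-0.11 to 0.11). Of the 4 genes at 10 CPM or more in either library, 2 were at least 2-fold higher in the coculture and 0 lower. Of all 8668 genes measured that way, 12.7% were 2-fold or more higher, and 11.7% were lower by as much. The genes were picked on this contrast, so nothing is read from that count. A bulk sum does not tell fewer cells of a type from less RNA per cell, and the 2 sorts held different cells, so levels within classes follow.

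**Figure D1:**
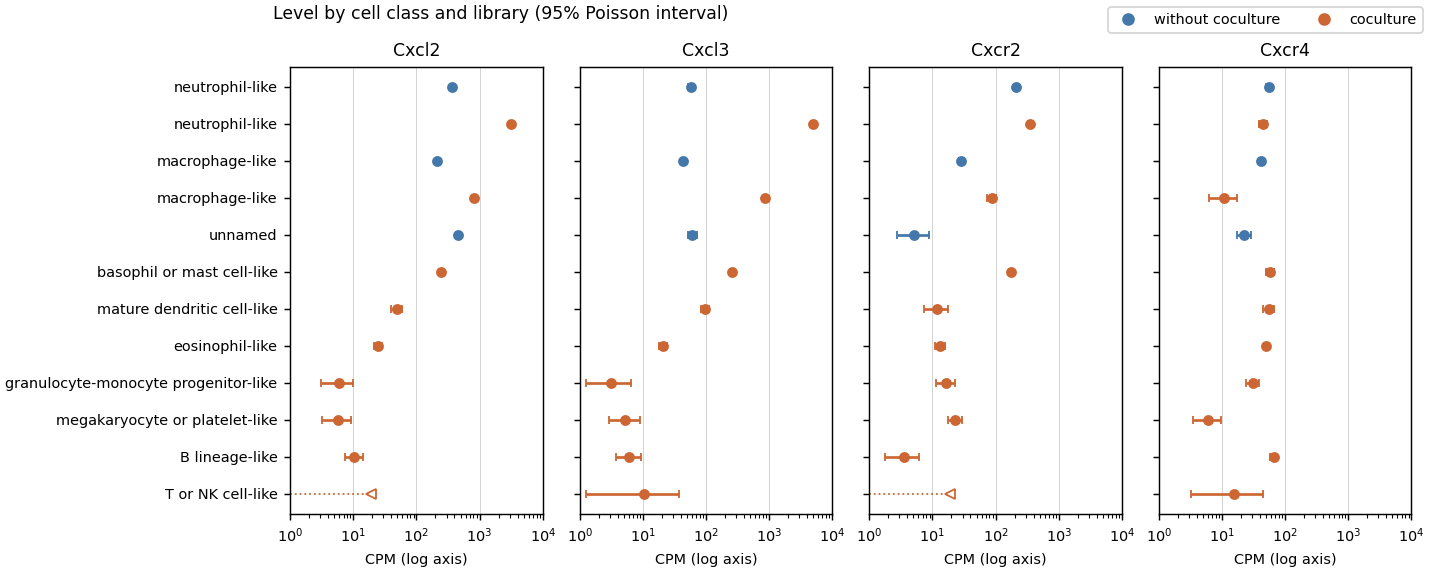
CPM (log axis) of Cxcl2, Cxcl3, Cxcr2 and Cxcr4 in each class of 50 or more cells, blue for the library without coculture and orange for the coculture; bars are exact Poisson 95% intervals, and an open arrow is the upper bound where no UMI was seen. The ligands reach 3142 and 4934 CPM in coculture neutrophil-like cells, Cxcr2 is highest in neutrophil-like cells of both libraries, and Cxcr4 lies between 41.8 and 66.4 CPM in 7 of the 12 points.

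Cxcl3, whose product acts on CXCR2, was held mainly by the neutrophil-like cells of the coculture. Their level was 4934 CPM (4870 to 5000), from 22299 UMIs, which was 89.2% of the Cxcl3 UMIs of that library in 14.3% of its cells. Neutrophil-like cells without coculture stood at 57.1 CPM (51.1 to 63.6), from 330 UMIs. The coculture level was 86.4-fold higher, a log2 ratio of 6.43 (6.28 to 6.59). That size depends on cluster 3 being named neutrophil-like: clustered at resolution 0.4, which left 25 coculture cells with the name, the log2 ratio was 2.96. Next in order came macrophage-like (864 CPM), basophil or mast cell-like (259 CPM) and mature dendritic cell-like cells (95.6 CPM), all of the coculture. The unnamed, neutrophil-like and macrophage-like cells without coculture followed at 60.5, 57.1 and 42.5 CPM, and the intervals of the unnamed and the neutrophil-like cells overlapped. Eosinophil-like cells were at 20.8 CPM and the 4 lower classes at 10.3 CPM or less, each with an interval that overlapped the next. Single cells held 60 of the 189 Cxcl3 UMIs of mature dendritic cell-like cells and 45 of the 154 of the unnamed cells. In eosinophil-like cells 85 of 175 were in 1 cell. No place in the order is read for those classes.

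Cxcl2, the second CXCR2 ligand, was also highest in coculture neutrophil-like cells, with coculture macrophage-like cells next among named classes. Below them the order differed from that of Cxcl3: basophil or mast cell-like cells lay under, not over, neutrophil-like cells without coculture. Mature dendritic cell-like cells were at 49.1 CPM, with 41 of 97 UMIs in 1 cell. Coculture neutrophil-like cells stood at 3142 CPM (3090 to 3194), 85.2% of the Cxcl2 UMIs of that library. Neutrophil-like cells without coculture stood at 366 CPM (350 to 382), so the coculture level was 8.59-fold higher, a log2 ratio of 3.10 (3.04 to 3.17). With the 25 coculture cells named at resolution 0.4 it was 0.74, under the 2-fold line. Coculture macrophage-like cells stood at 808 CPM, the unnamed cells at 450 CPM, basophil or mast cell-like cells at 242 CPM and macrophage-like cells without coculture at 215 CPM. Those 6 highest levels had intervals apart from each other, but in the unnamed cells 294 of 1146 UMIs were in 1 cell, so no place in the order is read for them. Without coculture the gene was spread more widely, with 54.8% of its UMIs in macrophage-like and 29.2% in neutrophil-like cells.

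Cxcl1, the third ligand, was seen in few cells. Without coculture its 46 UMIs lay in 20 cells, and 42 of them in 18 macrophage-like cells of cluster 2, up to 16 in 1 cell. In the coculture its 31 UMIs lay in 7 cells: 16 in 1 cell of the stromal or endothelial cell-like cluster 18, 13 in 4 cells of cluster 3 and 2 in 2 basophil or mast cell-like cells. Neutrophil-like cells held 2 UMIs without coculture and 13 in the coculture, 0.346 and 2.88 CPM. Of 90 coculture macrophage-like cells 0 held a Cxcl1 UMI, which allows a share of cells with a UMI of up to 4.02% at their median depth of 14773.5 UMIs and does not limit how many use the gene. Macrophage-like cells without coculture showed 3.09% (1.84 to 4.84%) at 25843 UMIs, and no difference is read from shares at unequal depth.

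The balance of the ligands also differed. For each Cxcl2 UMI the library without coculture held 0.175 Cxcl3 UMIs (0.165 to 0.186), and the coculture library between 1.47 and 1.53. The 5 clusters counted without coculture lay from 0.0419 in cluster 11 (0.0166 to 0.0883, from 7 Cxcl3 UMIs) to 0.198 in cluster 2. In the coculture the ratio was 1.58 in cluster 3, 1.07 in macrophage-like cells, 0.725 in cluster 11 and 1.95 in mature dendritic cell-like cells, and 0.337 in the basophil or mast cell-like cluster 5. These ratios are between counts of 2 genes in the same cells and are compared across cells, not read as one gene's level over the other's. Some rest on few cells of the coculture. Single cells held 66 of the 103 Cxcl3 UMIs of cluster 11 and 26 of the 58 of cluster 5. In mature dendritic cell-like cells, single cells held 60 of 189 Cxcl3 and 41 of 97 Cxcl2 UMIs. No difference between classes is read from the ratios of those cells.

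CXCR2, the receptor of these ligands, is itself a neutrophil gene product, and Cxcr2 was highest in neutrophil-like cells of both libraries. Without coculture its level was 213 CPM (201 to 225). In the coculture it was 348 CPM (331 to 365), which is 0.71 higher on the log2 scale (0.60 to 0.82). Those cells held 69.2% and 61.1% of the Cxcr2 UMIs of their libraries. Basophil or mast cell-like cells came next at 175 CPM (161 to 190), with at least 1 UMI in 64.0% of 408 cells at full depth. Drawn down at random to 2000 UMIs per cell, the share was 30.5% (26.0 to 35.3%) of 397 cells. At that depth it was 33.2% in neutrophil-like cells without coculture and 48.5% in those of the coculture. Both basophil or mast cell-like clusters carried Cxcr2, at 188 CPM in cluster 5 and 157 CPM in cluster 15. Macrophage-like cells were at 28.5 CPM without coculture, against 86.9 CPM. Megakaryocyte or platelet-like (23.0 CPM), progenitor-like (16.2 CPM), eosinophil-like (13.3 CPM) and mature dendritic cell-like cells (11.6 CPM) had intervals that each overlapped the next, and B lineage-like cells were at 3.48 CPM.

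Cxcr4, whose product binds CXCL12, was spread over most classes and did not follow the ligands. B lineage-like cells were highest at 66.4 CPM (58.0 to 75.5), followed by basophil or mast cell-like cells (57.2 CPM), neutrophil-like cells without coculture (56.3 CPM), mature dendritic cell-like (55.1 CPM), eosinophil-like (50.4 CPM) and coculture neutrophil-like cells (44.5 CPM). Each of these intervals overlapped the next, down to macrophage-like cells without coculture at 41.8 CPM. Within neutrophil-like cells the log2 ratio was -0.34 (-0.60 to -0.08), from 325 and 201 UMIs, the direction opposite to Cxcr2. At resolution 0.4 it was -1.11 (-2.57 to 0.03), an interval that takes in no difference. Coculture macrophage-like cells stood at 10.7 CPM, against 41.8 CPM without coculture, a log2 ratio of -1.97 (-2.78 to -1.26) from 16 and 774 UMIs. Different clusters hold that class in the 2 libraries, cluster 2 (570 of 582 cells) without coculture and cluster 13 (all 90) in the coculture.

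**Figure D2:**
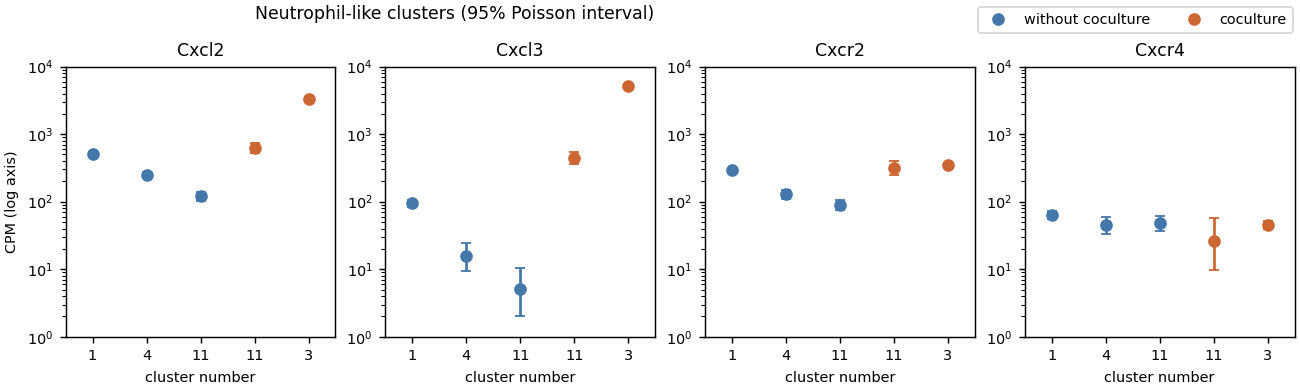
CPM (log axis) of the 4 genes in each neutrophil-like cluster of 20 or more cells, by cluster number, blue without coculture and orange in the coculture, with exact Poisson 95% intervals. Cluster 11 appears for both libraries: Cxcl3 is at 5.05 and 450 CPM there and Cxcr2 at 89.4 and 319 CPM, while the Cxcr4 intervals overlap.

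Neutrophil-like cells of the 2 libraries fell in different clusters, so the levels were set out by cluster. Without coculture, cluster 1, led by Asprv1, Hp and the calgranulin gene S100a9, had Cxcl2 at 513 CPM, Cxcl3 at 94.5 CPM, Cxcr2 at 294 CPM and Cxcr4 at 63.5 CPM. Cluster 4 had 249, 15.7, 129 and 44.4 CPM of the same genes. Cluster 11, led by the secondary granule genes Ltf, Camp and Ngp, had 120, 5.05, 89.4 and 47.6 CPM. Cxcl2 and Cxcr2 thus fell in the same order over these 3 clusters with intervals apart, Cxcl3 was apart only in cluster 1, and the Cxcr4 interval of cluster 11 overlapped both others. In the coculture, cluster 3 stood at 3278 CPM of Cxcl2, 5177 CPM of Cxcl3, 349 CPM of Cxcr2 and 45.5 CPM of Cxcr4.

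Of the neutrophil-like clusters, cluster 11 alone had 20 or more cells of each library, 105 and 23. There Cxcl3 had 7 and 103 UMIs, a log2 ratio of 6.48 (5.38 to 7.83), and of the 103 UMIs 66 were in 1 cell. Cxcl2 had 167 and 142 UMIs, 2.37 on the log2 scale (2.03 to 2.70). Cxcr2 was 3.57-fold higher in the coculture cells, a log2 ratio of 1.84 (1.40 to 2.26), larger than over the whole class. For Cxcr4, with 6 UMIs in the coculture cells, the interval (-2.36 to 0.34) took in no difference. This cluster was singled out after the data were seen.

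Markers of other lineages differed in the same direction as the ligands in some lists. In neutrophil-like cells the 10 macrophage markers summed to 15253 CPM without coculture, nearly all of it Lyz2, and to 3773 CPM in the coculture, with 4 and 8 of 10 at 20 CPM or more. The 6 megakaryocyte or platelet markers summed to 3.46 and 1751 CPM, of which Pf4 made 1746 CPM while Gp9 was at 0 in both. The 6 eosinophil markers summed to 60.2 and 561 CPM, and the 10 basophil or mast cell markers to 48.1 and 243 CPM with Tpsb2 and Mcpt4 at 0 in both. Their part in the differences was not tested.

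Shares of cells depend on depth, so each cell was thinned to 2000 UMIs at random and shallower cells were left out (122 of 1061 neutrophil-like cells without coculture and 25 of 431 in the coculture). At that depth Cxcl3 was seen in 4.69% (3.43 to 6.24%) of neutrophil-like cells without coculture and 86.7% (83.0 to 89.8%) in the coculture, from 7.63% and 90.5% unthinned. Cxcl2 was seen in 25.1% and 87.4%, from 36.8% and 92.3% unthinned. Cxcr2 was seen in 33.2% (30.2 to 36.3%) and 48.5% (43.6 to 53.5%), and Cxcr4 in 10.1% and 8.13%, with overlapping intervals. RNA free in the droplets can give a UMI to a cell that does not use a gene. In the coculture library, 787 thinned B lineage-like cells, taken as the reference for free RNA, showed Cxcl2 in 0.762%, Cxcl3 in 1.27% and Cxcr2 in 0.508%, from median depths of 2872 UMIs, against 7654 in neutrophil-like cells. Cxcr4, a gene that B lineage cells use, was seen in 11.8% of them. Without coculture only 1 cell was B lineage-like, so no such level could be set there.

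**Figure D3:**
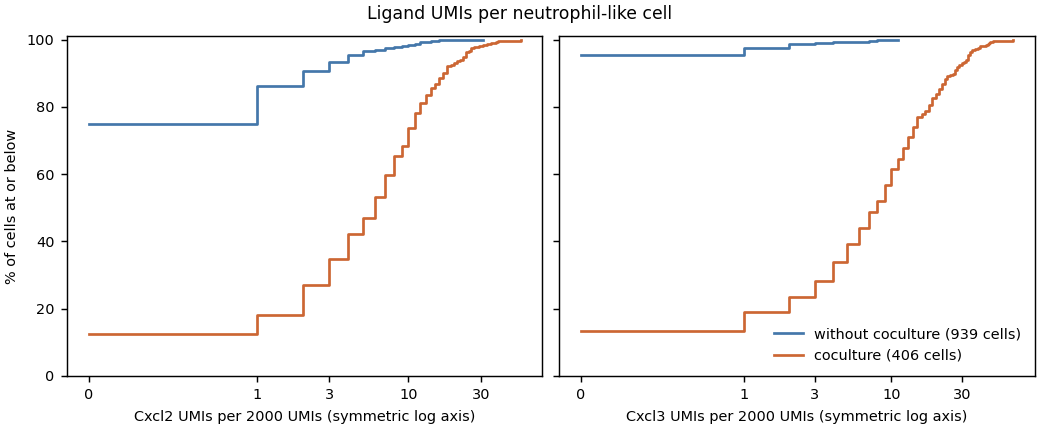
Share of neutrophil-like cells (in %) with at most the given number of Cxcl2 (left) or Cxcl3 UMIs (right) per 2000 UMIs, on a symmetric log axis, for 939 cells without coculture (blue) and 406 coculture cells (orange). The coculture medians are 6 Cxcl2 and 8 Cxcl3 UMIs, and both medians without coculture are 0.

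The ligand difference lay in most coculture neutrophil-like cells rather than in a few. Thinned to 2000 UMIs, the median coculture cell had 6 Cxcl2 UMIs, with a middle range from 2 to 11 and a maximum of 55. For Cxcl3 the median was 8, the middle range from 3 to 15 and the maximum 67. Without coculture both medians were 0 and the maxima 31 and 11. Unthinned, the 10% of coculture neutrophil-like cells with most of each gene held 35.2% of the Cxcl2 and 41.4% of the Cxcl3 UMIs. Without coculture that share of cells held 71.9% of Cxcl2, and all of Cxcl3, which was seen in only 7.63% of cells. For Cxcr2 the top 10% of cells held 39.6% of the UMIs without coculture and 33.7% in the coculture.

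In both libraries, cells with Cxcl2 had Cxcl3 more often than cells that lacked Cxcl2. Of thinned coculture neutrophil-like cells with Cxcl2, 94.1% (91.1 to 96.3%) also had Cxcl3, against 35.3% (22.4 to 49.9%) of the 51 cells that lacked Cxcl2. Without coculture 12.7% (8.74 to 17.6%) of cells with Cxcl2 had Cxcl3, and 1.99% of cells that lacked Cxcl2. Only 44 of those 939 cells had Cxcl3, which limits these shares. Of the 44, 68.2% (52.4 to 81.4%) had Cxcl2, against 23.0% of cells that lacked Cxcl3. Cxcr2 went with the ligands less closely: it was seen in 49.9% of coculture cells with Cxcl2 and 39.2% of those without, with overlapping intervals. Without coculture the shares were 40.7% (34.4 to 47.2%) and 30.7% (27.3 to 34.3%). Those shares pool clusters that differed in both genes. Without coculture, Cxcl2 was seen in 32.8, 14.4 and 15.7% of thinned cells of clusters 1, 4 and 11, and Cxcr2 in 42.7, 20.1 and 21.6%. The part of that mixture in the shares was not tested. Cxcr4 was seen in 8.63% of coculture cells with Cxcr2 and 7.66% of those without, and in 10.6% and 9.89% without coculture. Counting the 5 genes together, 47.0% of 939 cells without coculture and 4.19% of 406 coculture cells had none of them. Exactly 2 were seen in 14.7% and 42.6%, exactly 3 in 2.45% and 40.9%, and all 5 in 0 cells of either library.

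In the other coculture classes set out here, cells with ligand UMIs also carried more neutrophil markers than cells with none. Among 408 basophil or mast cell-like cells, 33 (8.09%) had at least 5 Cxcl2 and Cxcl3 UMIs together and held 95.3% of those UMIs in the class. Their 13 neutrophil markers summed to 23980 CPM, against 4927 CPM in the 328 cells with 0 ligand UMIs. Within cluster 15 the sums were 28989 and 9903 CPM. Within cluster 5 they were 4097 and 2102 CPM, with Retnlg, Ltf, Camp, Ngp and Il1r2 at 0 in its 13 cells with at least 5 ligand UMIs. Over the whole class, Arg1, a leading gene of cluster 3, stood at 1473 CPM in the 33 cells and 2.37 CPM in the 328. In cluster 15 it stood at 1807 and 3.27 CPM, and in cluster 5 at 146 and 1.85 CPM. Median depths over the class were 10141 and 6126 UMIs. Cxcr2 was at 248 and 166 CPM over the class, so it was present in basophil or mast cell-like cells that held no ligand UMI.

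In macrophage-like cells of the coculture the ligands were widespread. Of 90 cells, 58 (64.4%) had at least 5 ligand UMIs, with 13230 CPM of neutrophil markers and 113 CPM of Cxcr2. The 11 with none had 1231 CPM of neutrophil markers, 0 Cxcr2 UMIs and Ltf, Camp, Ngp, Csf3r and Lcn2 at 0. Of 482 eosinophil-like cells, 9 held 82.5% of the ligand UMIs of the class, with 22259 CPM of neutrophil markers against 1171 CPM in the 414 cells with none. Of 291 mature dendritic cell-like cells, 11 held 78.0%, with 7253 against 296 CPM. Only 2 of 911 B lineage-like cells had at least 5. In neutrophil-like cells of the coculture the markers went the other way, with 62869 CPM in the 387 cells with at least 5 ligand UMIs and 217042 CPM in the 17 with none. No step took out droplets holding 2 or more cells, and their part in these values was not tested.

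Without coculture, neutrophil-like cells with at least 5 ligand UMIs (132 of 1061) had 199295 CPM of neutrophil markers and the 653 with none 135106 CPM, the opposite direction to the coculture. Of 582 macrophage-like cells, 243 had at least 5 ligand UMIs, with 16070 CPM of neutrophil markers, a median depth of 37854 UMIs and 38.6 CPM of Cxcr2. The 180 with none had 7477 CPM, a depth of 16748 UMIs and 9.24 CPM of Cxcr2. In the unnamed cluster 9, 30 of 138 cells held 94.8% of the ligand UMIs, with neutrophil markers at 9881 CPM against 10014 CPM in the 75 cells with none, and depths of 25405.5 and 8193 UMIs.

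Over the 11 sums of 50 or more cells of a named class in 1 library, the genes most like each member were ranked by Pearson's r of log2(CPM + 10) among 5536 genes at 50 CPM or more in at least 1 sum. Cxcl2 was nearest to Antxr2 (r = 0.97), the complement receptor gene C5ar1 (0.95), the osteopontin gene Spp1 (0.95), Ccdc80 (0.95) and the heme oxygenase gene Hmox1 (0.94). Cxcl3 was nearest to Ptgs2, which encodes cyclooxygenase 2 (0.96), the arginase gene Arg1 (0.96), the glucose transporter gene Slc2a1 (0.92), Cxcl2 (0.92) and Hmox1 (0.91). Cxcr2 was nearest to Blcap (0.95), the uridine phosphorylase gene Upp1 (0.93), Grina (0.93), the adiponectin receptor gene Adipor1 (0.92) and Atxn1 (0.90).

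For Cxcr4 the nearest genes were less close: Acbd3 (0.76), the NADPH oxidase subunit gene Ncf1 (0.72), Iqsec1 (0.71), Suds3 (0.69) and Gadd45a (0.67). Cxcl1 reached only 2.88 CPM in any sum, below the 10 CPM added, so its nearest genes (Adgrl2, Nus1, Lhfpl2, Osbpl8 and Wbp1l, r from 0.84 to 0.92) describe little. Among the members, r was 0.92 for Cxcl2 with Cxcl3, 0.89 for Cxcl2 with Cxcr2 and 0.78 for Cxcl3 with Cxcr2, and between 0.09 and 0.25 for Cxcr4 with the other 4. The 11 sums share 2 libraries, and 9 come from the coculture, so these are descriptions.

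The rest of the pathway was read from 7 lists of 80 genes, of which 78 were found. Within neutrophil-like cells 7638 genes were measured (10 CPM or more in either library), 10.5% higher in the coculture by 2-fold or more and 7.48% lower. Their median was -0.04 on the log2 scale. Of the 4 members measured, 2 were at least 2-fold higher and 0 lower, which, as over all cells, is how they were chosen.

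Among the other CXCR2 ligands, Ppbp, the platelet basic protein precursor gene, was at 192 CPM in coculture neutrophil-like cells against 1 UMI in those without coculture, a log2 ratio of 10.11 (7.63 to 15.42). It is a platelet gene, like Pf4 above. Cxcl5 was at 0 and 7.30 CPM, at least 14.1-fold higher against a floor of 3 UMIs in the library at 0, and fell below the measuring level. Cxcl15 had 0 UMIs without coculture and was at 0.443 CPM in the coculture. Cxcr1, the other receptor of these ligands, was also below that level at 0.692 and 3.54 CPM. Of the CXCR4 partners, Cxcl12 had 0 UMIs in both. Ackr3, the scavenging receptor for CXCL12, was at 0 and 28.3 CPM, at least 54.5-fold higher. Mif, which encodes a cytokine that can bind CXCR2 and CXCR4, went from 277 to 1165 CPM, 2.07 on the log2 scale (1.99 to 2.15). Cd74, its partner receptor and the class II invariant chain gene, was at 319 and 786 CPM, 1.30 on the log2 scale.

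Of the 13 other chemoattractant receptors, 9 were measured. Of these 3 were at least 2-fold higher and 0 lower, and the median was 0.02 on the log2 scale. Ccr7, the receptor gene for lymph node homing, was at 0 and 13.3 CPM, at least 25.6-fold higher. The lowest were the formyl peptide receptor gene Fpr1, at 151 and 92.9 CPM (-0.70), and the platelet-activating factor receptor gene Ptafr, at 64.2 and 40.1 CPM (-0.68).

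Of the 19 signalling and desensitisation genes found, 18 were measured, 2 at least 2-fold higher, 3 lower and 13 between, and the median was -0.48. Rgs1, a regulator that turns off G protein signals, went from 33.8 to 439 CPM, 3.70 on the log2 scale (3.49 to 3.92). The beta-arrestin gene Arrb1 was at 59.4 and 132 CPM (1.15). Rgs18 was at 39.6 and 14.8 CPM (-1.42), and the receptor kinase gene Grk6 at 85.5 and 37.4 CPM (-1.19), followed by Dock2 at -1.19.

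All 21 genes of the NF-kB pathway and its inflammatory targets were measured, 6 at least 2-fold higher, 2 lower and 13 between, with a median of 0.11. The interleukin gene Il1a had 2 UMIs without coculture and stood at 48.0 CPM in the coculture, a log2 ratio of 7.12 (5.25 to 10.17). Ptgs2 was at 4.85 and 76.8 CPM, 3.99 on the log2 scale (3.43 to 4.60). The lowest were Tnf, at 61.1 and 16.4 CPM (-1.90), and the chemokine gene Ccl3, at 964 and 369 CPM (-1.39). Genes of the list thus lay on both sides, and of the 5 subunit genes Relb was at 0.82 (0.41 to 1.24) while Nfkb1, Nfkb2, Rel and Rela lay between -0.17 and 0.11.

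Of the 17 granule and maturation genes, 16 were measured, 1 at least 2-fold higher, 8 lower and 7 between, with a median of -1.02. The resistin-like gene Retnlg was at 884 and 3201 CPM (1.86), and the collagenase gene Mmp8 at 1201 and 2236 CPM (0.90). The secondary granule genes Ltf, at 1676 and 198 CPM (-3.08), and Ngp, at 6522 and 1241 CPM (-2.39), were lowest. Of the list, 10 genes are among the markers that named the class. Over all cells the same lists had 2 higher and 5 lower of 10 chemoattractant receptors, 3 and 1 of 19 signalling genes, 4 and 4 of 21 NF-kB genes and 3 and 13 of 17 granule genes, with a median of 0.03 over all genes measured.

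**Figure D4:**
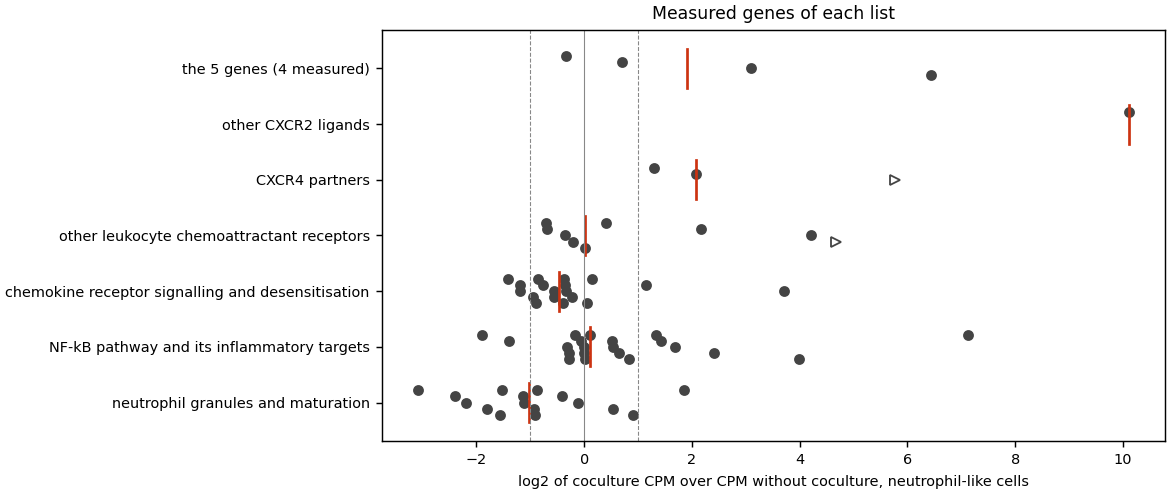
Log2 ratio of coculture CPM over CPM without coculture in neutrophil-like cells for each measured gene of the 5 genes and 6 lists with a measured gene (points), with the list median (red line) and the 2-fold lines (dashed). Open triangles are lower bounds against a floor of 3 UMIs; Cxcl3 lies at 6.43, Il1a at 7.12 and Ppbp at 10.11, while granule genes have a median of -1.02.

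The barcode filter lies close to some of the levels. Just inside the limit, barcodes with 5 to 10% mitochondrial UMIs (141 without coculture, 56 in the coculture) stood at 48.5 and 466 CPM of Cxcl3 and at 280 and 360 CPM of Cxcl2. Just outside, those over 10 and up to 15% (93 and 18) stood at 78.0 and 180 CPM of Cxcl3 and 518 and 361 CPM of Cxcl2, from as few as 6 UMIs. Cxcr2 stood at 209 and 68.3 CPM just inside, and at 245 and 30.1 CPM just outside, the last from 1 UMI. Its direction there was opposite to that over all kept cells, 64.0 and 88.4 CPM. With all deposited barcodes its log2 ratio over all cells was 0.42.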

How the data were processed

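The authors deposited sparse matrices of raw UMI counts, not normalized, for each gene and barcode. They were made with Cell Ranger and bcl2fastq against mm10, per the submitters' processing notes, with version 3.1.0 of the software named per the file headers. The sources used here do not give the annotation release or the barcode rule. CPM values were computed from counts summed over cells. Ratios carry exact conditional binomial intervals and shares exact Clopper-Pearson intervals at 95%, and the ratio code was tested on simulated data. Clustering used 2000 variable genes, 30 principal components, 15 neighbours and Leiden (igraph 0.11.9) at resolution 0.8. Naming a cluster took at least 3 markers of a set at 2-fold above other cells, and among its 10 leading genes no other set could have more markers than that set. No doublet caller was run. TMM factors came from edgeR 4.0.16. The 5 genes, the 7 lists and 15 marker sets were chosen with earlier results of these data known. Named genes are the 5 members, the 2 highest and 2 lowest measured genes of each list in neutrophil-like cells, and the 5 genes most like each member. Of the genes this rule or the marker lists would name, 2 are not reported here. Dock2, Nfkb1, Nfkb2, Rel, Rela, Relb, Cxcl5, Cxcl15, Cxcr1, Cxcl12, Cd74 and Pf4 were added after their values were seen. Grk2 and Grk3 appear in the files as Adrbk1 and Adrbk2. Protein sequences were not used here.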

Additional observations from a re-analysis of the deposited data

How the results depend on the processing

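Within neutrophil-like cells Cxcl2, Cxcl3 and Cxcr2 were higher and Cxcr4 lower in the coculture under all 9 alternatives, the last 2 of which (cluster 11 alone, without cluster 4) were chosen after seeing the data. Over all cells Cxcl2 and Cxcl3 were higher under all 6. At resolution 0.4 only 25 coculture cells kept the neutrophil-like name, and log2 ratios were 0.74 for Cxcl2, 2.96 for Cxcl3, 0.59 for Cxcr2 and -1.11 for Cxcr4. That Cxcr4 interval (-2.57 to 0.03) and the one of cluster 11 alone (-2.36 to 0.34) take in no difference, from 6 coculture UMIs each. At resolution 1.2 Cxcl2 gave 3.17. Choosing cells 1 by 1 gave 1.11 for Cxcr2 and -0.79 for Cxcr4. The stricter filter (at least 1000 genes, at most 5% mitochondrial UMIs) gave 6.14 for Cxcl3 and 0.85 for Cxcr2. Leaving out the 5% deepest cells gave 6.24 for Cxcl3. Cluster 11 alone gave 2.37 for Cxcl2, 1.84 for Cxcr2 and -0.86 for Cxcr4. Without cluster 4 the values were 2.99 for Cxcl2, 6.19 for Cxcl3 and 0.57 for Cxcr2.

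Over all cells, the mean of per-cell CPM gave 0.78 for Cxcl2, 3.72 for Cxcl3, 0.15 for Cxcr4 and, in the opposite direction, -0.80 for Cxcr2. Neutrophil-like cells, where Cxcr2 was highest, were 58.4% of kept cells and 20.8% of their UMIs without coculture. In the coculture they were 14.3% and 15.5%. The part of these shares in the Cxcr2 direction was not tested. TMM factors, which lowered the median of all genes by 0.14, gave 0.99 for Cxcl2, 4.09 for Cxcl3, 0.32 for Cxcr2 and -0.14 for Cxcr4. The stricter filter gave 0.57 for Cxcr2. Leaving out the 5% deepest cells gave 1.08 for Cxcl2, 4.09 for Cxcl3 and 0.32 for Cxcr2. Leaving out the 1% of cells with most UMIs of the gene gave 4.61 for Cxcl3 and 0.35 for Cxcr2, and no value for Cxcl1.

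Shares of neutrophil-like cells moved with the depth setting, which also changed the set of cells. Thinning to 4000 UMIs left out 505 of 1061 cells without coculture and 95 of 431 in the coculture. Thinning to 1000 UMIs left out 24 and 6. Without coculture, thinning to 1000 UMIs, to 4000 UMIs and no thinning gave 18.2, 37.6 and 36.8% for Cxcl2, 22.0, 49.8 and 54.9% for Cxcr2 and 5.50, 17.8 and 22.0% for Cxcr4. Cxcl3 gave 8.27% at 4000 UMIs and 7.63% unthinned. In the coculture the same settings gave 79.8, 92.6 and 92.3% for Cxcl2, 82.6, 89.9 and 90.5% for Cxcl3, 31.1, 68.8 and 81.2% for Cxcr2, 4.47, 17.3 and 25.8% for Cxcr4, and 0% for Cxcl1 at 1000 UMIs.

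Counts of genes depend on the rule. A minimum of 50 CPM gave 403 genes higher and 513 lower of 3465 over all cells, and 291 and 255 of 2923 in neutrophil-like cells. A 1.5-fold rule gave 1994 and 1888 of 8668, and 1425 and 1385 of 7638. With TMM over all cells 930 were higher and 1251 lower, 42.6% higher of those called against 52.2%, and the 50 CPM minimum gave 44.0%. In the lists, the 50 CPM minimum left 1 chemoattractant receptor and 2 NF-kB genes higher over all cells. The 1.5-fold rule gave, over all cells, 7 of 19 signalling genes and 8 of 21 NF-kB genes lower. In neutrophil-like cells it gave 2 of 9 chemoattractant receptors lower, 7 of 18 signalling genes lower and 2 of 16 granule genes higher. TMM gave 2 of 19 signalling genes lower over all cells. Nothing is read from these list counts. No paired analysis was possible because each group has 1 library.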
